A study of Drosophila melanogaster with 32 samples.

Results

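The genes described here encode the nuclear subunits of the oxidative phosphorylation (OXPHOS) system. They were taken as all probe sets that the array annotation assigns to a single gene whose symbol begins with ND-, Sdh followed by A to D, UQCR-, COX followed by a digit, or ATPsyn. The rule found 80 probe sets of 72 genes among the 18769 probe sets tested. Complex I had 35 probe sets of 32 genes, complex II had 6 of 6, complex III had 6 of 6, complex IV had 17 of 14 and complex V had 16 of 14. A further 4 probe sets that hold a matching gene together with other genes were left out.

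The measurements came from whole adult female Drosophila melanogaster of the LHM laboratory stock, hybridised to 32 Affymetrix Drosophila 2 arrays. From that stock 8 populations had been kept for 46 generations, 4 of them under enforced monogamy with a single mating per generation (M1 to M4) and 4 under the stock's standard promiscuous protocol (P1 to P4). Every female population was mated with its own males and, in a separate cross, with opposite-regime males whose population has the same number, and females were frozen 6 h after mating. Each of the 16 crosses was run on 2 arrays, 1 in batch 2 and 1 in batch 1.

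This gave 4 groups of 8 arrays. Monogamous females were mated to monogamous-line males or to promiscuous-line males, and promiscuous females to monogamous-line males or to promiscuous-line males. All groups share the LHM origin, the female sex, the mated state and the time after mating, so no virgin or unmated sample served as a baseline. The evolved unit is the population, so n is 4 populations per female regime. The male populations were shared: the males of each population served 1 monogamous and 1 promiscuous female population. In RNA from whole flies, fewer cells of a type and less RNA per cell cannot be told apart.

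OXPHOS complexes sit in the inner mitochondrial membrane. Complexes I and II pass electrons from NADH and succinate to ubiquinone, complex III passes them on to cytochrome c, complex IV hands them to oxygen, and complex V uses the resulting proton gradient to make ATP. Most subunits are encoded in the nucleus and must be supplied together with the few that the mitochondrial genome encodes. In adult flies the flight muscle is the tissue richest in mitochondria, and egg production stocks the oocyte with mitochondria. Many Drosophila OXPHOS genes have a duplicate copy that is known to be used mainly in the testis, and many of those copies carry the symbol of the parent gene followed by L.

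Values are the log2 signals that the robust multi-array average (RMA) method gives, and every difference below is a difference of such log2 values. Array medians lay between 5.412 and 5.502, the correlation between any 2 arrays was at least 0.9922, and no 2 arrays held identical values. Males were not hybridised. The 10 testis and sperm marker genes had a median log2 level of 3.54, and none of their probe sets was above 9. Of the other marker lists, the median log2 level was 13.88 for fat body, 11 for ovary and early embryo, 10.88 for flight muscle and 13.75 for gut. The nervous system list was dim, with a median of 5.41 and 0 of 8 probe sets above 9.

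The members split into a bright and a dim tier. Ordered by mean log2 level over the 32 arrays, they left a gap between ND-B8 at 7.59 and ND-13B at 10.41, and a level of 9, set in that gap after the values were seen, divides them into 55 bright and 25 dim probe sets. Bright members had a median level of 11.87 and dim members one of 4.05, beside 5.44 for all probe sets. Of the dim members 18 fell among the dimmest 40% of all probe sets, below 4.54. Probe sets differ in how strongly they bind, so these levels place a signal on the array and do not rank one gene's transcript abundance against another's.

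Most dim members were the duplicate copies. Of the 21 genes whose symbol marks them as a copy, 20 were dim. They were ND-20L, ND-24L, ND-51L1, ND-51L2 and ND-B14.5AL of complex I, SdhAL, SdhBL and SdhCL of complex II, UQCR-11L and UQCR-14L of complex III, COX4L, COX5BL, COX6AL, COX6AL2, COX6CL and COX7AL of complex IV, and ATPsynbetaL, ATPsynCF6L, ATPsynepsilonL and ATPsynGL of complex V. Their levels ran between 3.13 for SdhBL and 5.61 for ND-20L. The exception was COX7AL2, whose probe set 1625901_s_at had a level of 12.27, and whose array values ran between 11.84 and 12.60. The suffix _s_at marks a probe set that can match transcripts of more than 1 gene, and whether this signal comes from COX7AL2 alone was not tested.

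The remaining dim members were 3 parent genes and 2 probe sets of genes that a brighter probe set also measures. ND-B8 (7.59) and ND-B12 (6.56) are accessory subunits of complex I, and UQCR-11 (5.95) belongs to complex III. One COX7B probe set had a level of 3.98, where its other probe sets had 13.56 and 13.04, and one COX7C probe set had 3.62 where the other had 12.98. Probe sets of the same gene can target different exons or ends of a transcript, and those 2 dim probe sets are reported apart from their genes.

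**Figure D1:**
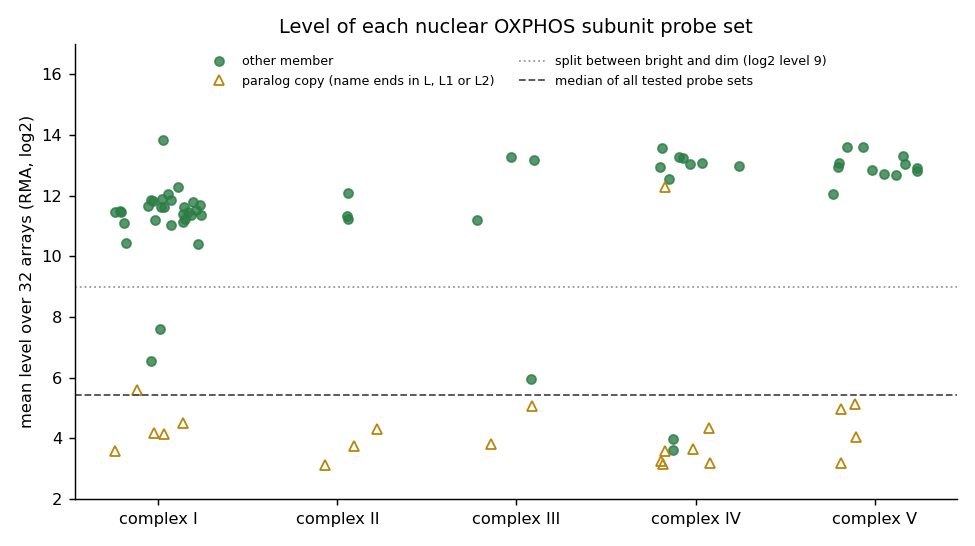
Mean log2 level over 32 arrays (vertical axis) of each of the 80 probe sets, by complex (horizontal axis). Circles are members, triangles are the copies whose symbol ends in L, L1 or L2, the dotted line is the level of 9 and the dashed line is the median of all tested probe sets (5.44); 20 of the 21 triangles lie below the dotted line.

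Among bright members the signal at the top and bottom of each complex was as follows. ND-MLRQ had the highest signal of the complex I names (13.82), and its mammalian counterpart is now counted with complex IV. ND-13B had the lowest (10.41). SdhC, a membrane anchor of succinate dehydrogenase, had 12.075 and SdhD, the other anchor, 11.23. UQCR-14, an accessory subunit of complex III, had 13.26 and UQCR-Q 11.20. The complex IV signals ran between 12.27 for COX7AL2 and 13.56 for COX7B. In complex V ATPsynC, which forms the rotating ring in the membrane, had 13.60, and a probe set of the catalytic subunit ATPsynbeta had 12.055. The lowest of all probe sets in each complex were the copies ND-B14.5AL (3.584), SdhBL (3.13), UQCR-14L (3.80), COX7AL (3.13) and ATPsynCF6L (3.19).

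The bright members moved together between arrays. After removal of the batch mean, the correlation between a pair of bright members over 32 arrays averaged 0.575, and 0.587 with 1 probe set for each of 49 genes. The same average was 0.054 among dim members, 0.017 among all 4053 probe sets above 9 and 0.007 among all probe sets. These are descriptions, since arrays share population, cross and batch. Because the bright members moved together, counts of them in the comparisons below are not counts of separate observations. Individual bright members ranged between an average of 0.70 for ND-ASHI, an accessory complex I subunit, and 0.31 for both ATPsynbeta probe sets. ND-MLRQ (0.32) and the ND-ACP probe set 1624715_at (0.34), which measures the mitochondrial acyl carrier protein, also followed the others loosely.

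The means of the complexes also moved together. Over 32 arrays the mean log2 level of the bright members of complex I correlated at 0.92 with that of complex II, 0.83 with complex III and 0.87 with complex IV. Complex V correlated at 0.57 with complex III and at 0.72 with complex IV. Without the ATPsynbeta probe sets, those values were 0.82 and 0.91.

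**Figure D2:**
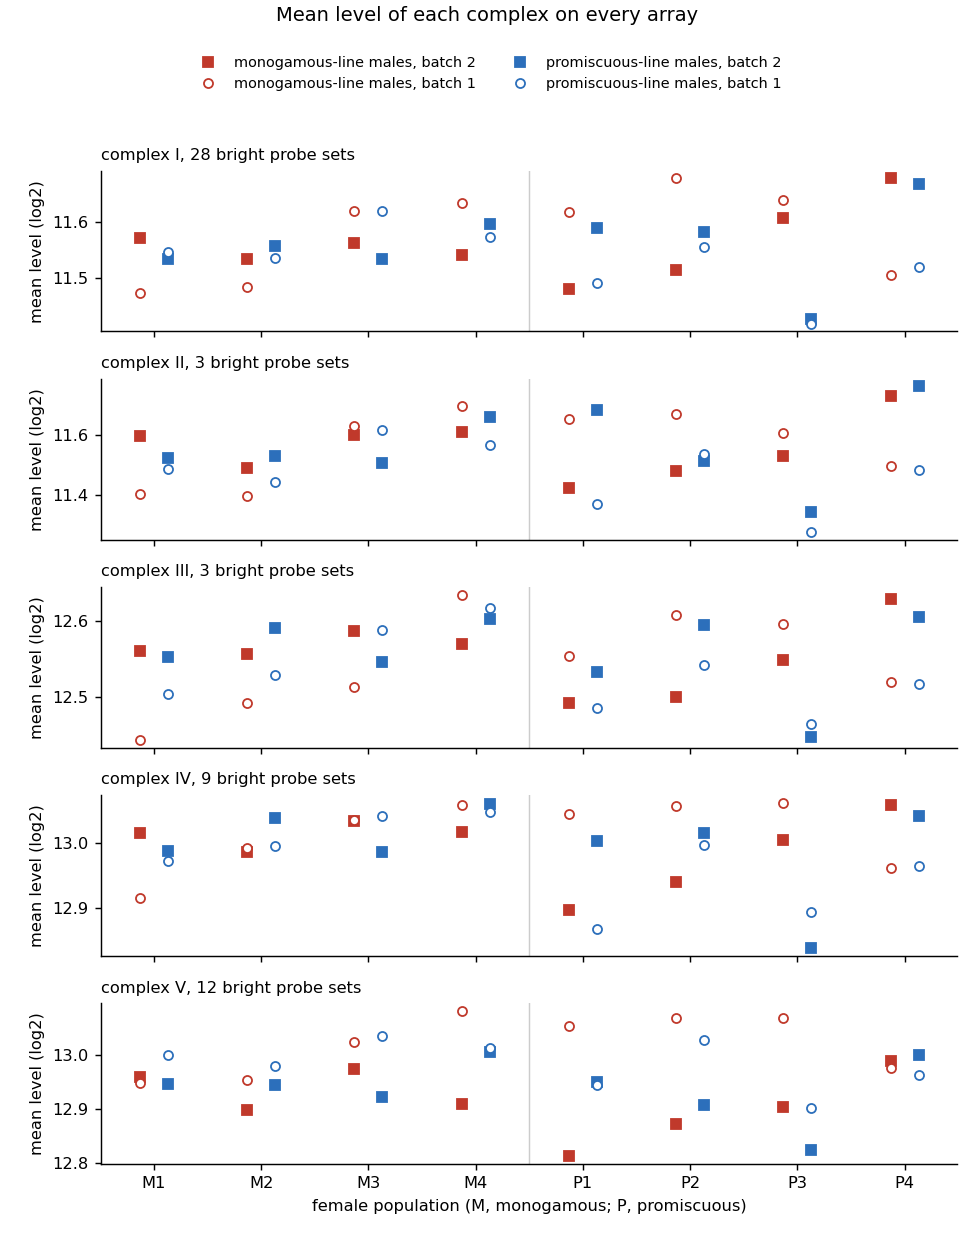
Mean log2 level of the bright members of each complex (vertical axis, one panel per complex) on each of the 32 arrays, by female population (horizontal axis). Red marks females mated to monogamous-line males, blue marks promiscuous-line males, filled squares are batch 2 and open circles batch 1; the 2 blue P3 points are the lowest of their panel in complexes I and II, and P1 and P2 change order between batches.

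The span between arrays was small. The mean over all 55 bright members ran between 12.01 and 12.26. The limma tests below were made on each probe set and not on this mean, and single members can span more. Population means over those members were 12.13 in M1, 12.13 in M2, 12.18 in M3 and 12.19 in M4, and 12.13 in P1, 12.17 in P2, 12.11 in P3 and 12.18 in P4. The 2 sets of populations overlapped over nearly their whole width. M4 was the highest of the 8 populations for 23 of the 55 bright members, and P3 was the lowest for 23 of them. Among all probe sets above 9, M4 was highest for 14.7% and P3 lowest for 14.3%.

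The mean of the flight muscle markers moved in the same direction as that of the bright members. The list held 11 probe sets for 8 of 10 genes, among them the flight muscle actin Act88F, flightin (fln) and the troponin C gene TpnC4. Over 32 arrays its mean correlated with the mean of the bright members at 0.79 (Spearman 0.82), at 0.75 without the 2 arrays farthest from its median, at 0.84 within batch 2 and at 0.79 within batch 1. Over the 8 population means the value was 0.89. The probe sets of the list differed in their order of populations. Among promiscuous populations Act88F, fln, TpnC4 and the probe sets Strn-Mlck 1630501_a_at and Mf 1636600_a_at were lowest in P3. TpnC41C, Mlc2, up and the probe sets Strn-Mlck 1634574_a_at and Mf 1635372_a_at were highest there. The Strn-Mlck probe set 1624063_at was neither. For the ovary and early embryo list the array value was -0.51, at -0.28 within batch 2 and -0.75 within batch 1. It was -0.37 for fat body, 0.29 for gut and 0.06 for nervous system. The part of flight muscle RNA in the differences between arrays was not tested.

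**Figure D3:**
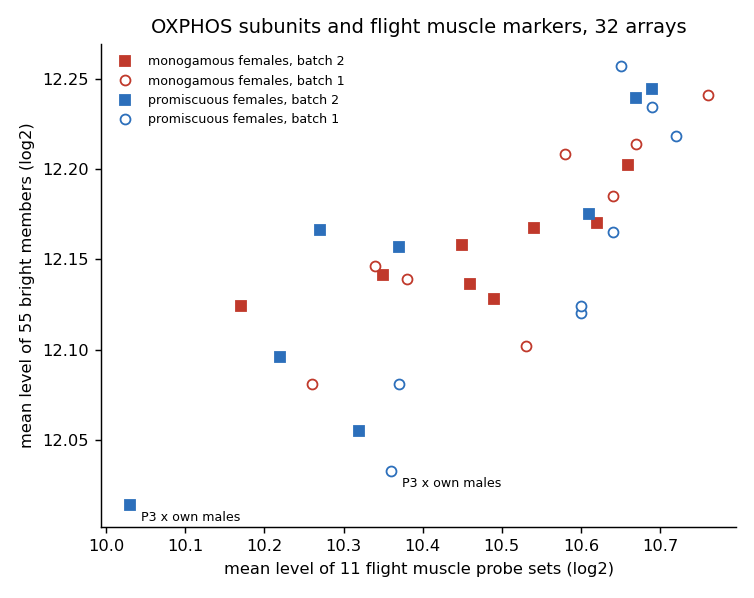
Mean log2 level of the 55 bright members (vertical axis) against that of the 11 flight muscle probe sets (horizontal axis) on 32 arrays. Red marks monogamous females, blue promiscuous females, filled squares batch 2 and open circles batch 1; arrays with more flight muscle signal had more OXPHOS signal, and the 2 labelled arrays of P3 females with their own males are the lowest on the vertical axis.

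The mean of the subunits that the naming rule misses moved in the same direction as that of the bright members. These subunits are blw, the alpha subunit of the ATP synthase, its epsilon subunit sun, the complex III genes Cyt-c1, RFeSP and ox, and the complex IV genes cype and levy. Their mean correlated with that of the bright members at 0.76 over 32 arrays and at 0.87 over 8 populations. Of their 8 probe sets 6 were above 9, while sun (6.52) and the RFeSP probe set 1641174_at (3.90) were not. The list of Krebs cycle and pyruvate dehydrogenase genes gave 0.44 and the assembly factors of the complexes 0.07, while the list for mitochondrial gene expression gave -0.42.

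The female regime comparison asks whether evolution under monogamy altered these genes in mated females. No member was called, at a Benjamini-Hochberg adjusted p under 0.05 over all probe sets in limma, and none of the 18769 probe sets was (0%). At an unadjusted p under 0.05 there were 7 members and 1334 of all probe sets. The difference, monogamous minus promiscuous females, was above 0 for 54 of 80 members with a median of 0.008. Over all probe sets 47.1% were above 0, and the median was -0.004. Of bright members 70.9% were above 0, beside 49.7% of all probe sets above 9.

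By complex the means of bright members differed by 0.034 or less between the regimes. Complex I averaged 11.56 ± 0.03 in monogamous and 11.56 ± 0.03 in promiscuous females (SD, n = 4 populations each). Complex II averaged 11.55 ± 0.08 in monogamous and 11.53 ± 0.07 in promiscuous females, and complex III 12.56 ± 0.04 in monogamous and 12.54 ± 0.03 in promiscuous females. Complex IV showed the widest gap, 13.01 ± 0.03 in monogamous against 12.98 ± 0.03 in promiscuous females, a difference of 0.034. Its 9 bright probe sets include COX7AL2, which had the largest difference, 0.145, and their median difference was 0.026. The complex IV mean without COX7AL2 was not taken. Complex V averaged 12.97 ± 0.03 in monogamous and 12.95 ± 0.03 in promiscuous females. These complex means were not given a test of their own, because the members were chosen with earlier results known.

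ND-B8 had the smallest unadjusted p of the members. Its population means were 7.63, 7.75, 7.74 and 7.64 in monogamous females M1 to M4, against 7.43, 7.55, 7.48 and 7.52 in promiscuous females P1 to P4. All 4 monogamous populations lay above all 4 promiscuous ones. The difference was 0.19 (SE 0.05), with an adjusted p of 0.554 in limma. ND-24L, a copy of a complex I core subunit, lay the other way without overlap: 4.06, 4.16, 4.10 and 4.15 in monogamous females, against 4.25, 4.26, 4.25 and 4.21 in promiscuous females. Its difference was -0.12 (SE 0.04, adjusted p = 0.585 in limma), and its signal is in the dimmest 40%.

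These were the 2 members of 80 whose population ranges did not overlap. Among all probe sets 4.08% had ranges that did not overlap, and nothing particular to the members is read from their 2. The next smallest p-values belonged to UQCR-11L (-0.21, SE 0.07), COX6CL (0.09, SE 0.03) and the ATPsyngamma probe set 1632838_at (0.09, SE 0.03), with adjusted p of 0.610, 0.638 and 0.640 in limma. ATPsyngamma, the central stalk of the ATP synthase, had population means of 12.81, 12.86, 12.96 and 12.91 in monogamous females, against 12.76, 12.78, 12.81 and 12.83 in promiscuous females. M1 lies inside the promiscuous range. Its other probe set, 1627018_s_at, differed by 0.01.

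COX7AL2 had the largest female difference of the bright members, at 0.145. Its population means were 12.23, 12.37, 12.28 and 12.49 in monogamous females, against 12.15, 12.20, 12.15 and 12.30 in promiscuous females. P4 exceeded M1 and M3, so the groups overlapped.

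The second comparison asks how females respond to the regime of their mate, as the response to monogamous-line minus promiscuous-line males within each female population. Over all 8 populations no member was called in limma, and no probe set was (0%). Responses were above 0 for 60 of 80 members, with a median of 0.021, beside 51.3% and 0.002 for all probe sets. Of bright members 81.8% were above 0, beside 37.4% of all probe sets above 9. The smallest p belonged to ND-SGDH, an accessory subunit of complex I. Its responses were 0.00, 0.04, 0.07 and 0.08 in M1 to M4 and 0.04, 0.04, 0.16 and 0.01 in P1 to P4. The mean was 0.06 (SE 0.02, adjusted p = 0.368 in limma), but in batch 2 alone it was -0.006.

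The other 4 members with the smallest p were dim copies. COX5BL responded above 0 in all 8 populations with a mean of 0.11 (SE 0.04), and the means of ND-B14.5AL, UQCR-14L and SdhBL were 0.09, 0.11 and 0.07. Their adjusted p ran between 0.369 and 0.441 in limma. All 4 had levels in the dimmest 40% of the array, and picking them by p on these same responses favours like signs.

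Within monogamous females the median response was near 0. No member was called and no probe set was (0%). Of 80 members, 36 responded above 0, with a median of -0.003, beside 51.3% and 0.002 over all probe sets. Of bright members 34.5% were above 0, beside 39.1% of all probe sets above 9. The mean over bright members was -0.017 in M1, -0.035 in M2, 0.017 in M3 and -0.002 in M4. These averages joined batches of opposite sign in 3 of the 4 populations. M4 had -0.061 in batch 2, with 5 of 55 bright members above 0, and 0.056 in batch 1, with 41 above 0. M1 had 0.031 in batch 2 and -0.065 in batch 1, M3 had 0.041 in batch 2 and -0.007 in batch 1, and M2 had -0.034 in batch 2 and -0.037 in batch 1. Complex III was below 0 in all 4 populations (-0.027, -0.036, -0.018 and -0.008), and the other complexes were on both sides of 0. In batch 2 the complex III means, of 3 bright probe sets, were 0.008, -0.035, 0.041 and -0.034 in M1 to M4. In batch 1 they were -0.061, -0.037, -0.076 and 0.018, so only M2 kept its sign.

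The members with the smallest p in monogamous females were SdhBL (0.13, SE 0.04), UQCR-6.4 (-0.05, SE 0.02), ND-B8 (-0.14, SE 0.06), UQCR-11 (-0.20, SE 0.08) and the ATPsynbeta probe set 1630984_at (-0.06, SE 0.03). Each of the 5 responded in the same direction in all 4 monogamous populations, which picking them by p on these same responses favours. Their adjusted p ran between 0.473 and 0.575 in limma. UQCR-6.4, a small accessory subunit of complex III, responded by -0.103, -0.035, -0.015 and -0.045 in M1 to M4 and by 0.017, 0.019, 0.064 and 0.028 in P1 to P4.

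Within promiscuous females nearly all bright members leaned towards higher levels with monogamous-line males. Responses were above 0 for 72 of 80 members and for 54 of 55 bright ones. The median over members was 0.050, beside 0.003 for all probe sets and -0.008 for those above 9, where 44.0% were above 0. No member was called in limma, where 1 probe set of 18769 was (0.00533%). At an unadjusted p under 0.05 there were 12 members, beside 1917 of all probe sets and 718 of the 4053 above 9.

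Most of that lean came from P3. The mean response of the bright members was 0.009 in P1, 0.015 in P2, 0.177 in P3 and 0 in P4, an average of 0.050 ± 0.085 (SD, n = 4) and of 0.008 without P3. Without P3, 35 of 55 bright members were above 0. By complex, P3 responded by 0.20 in complex I, 0.25 in complex II, 0.12 in complex III, 0.17 in complex IV and 0.12 in complex V. In the other 7 populations no complex went above the 0.052 of complex II in M3.

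P3 was above 0 in both batches, while P1, P2 and, with values near 0, P4 changed sign between them. In P3 the mean response of the bright members was 0.15 in batch 2 and 0.20 in batch 1. In P1 it was -0.12 in batch 2 and 0.14 in batch 1, and in P2 it was -0.06 in batch 2 and 0.09 in batch 1. P4 gave 0.005 in batch 2 and -0.004 in batch 1. With batch 2 alone, 23 of 55 bright members were above 0 in promiscuous females, and with batch 1 alone 55 of 55 were.

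**Figure D4:**
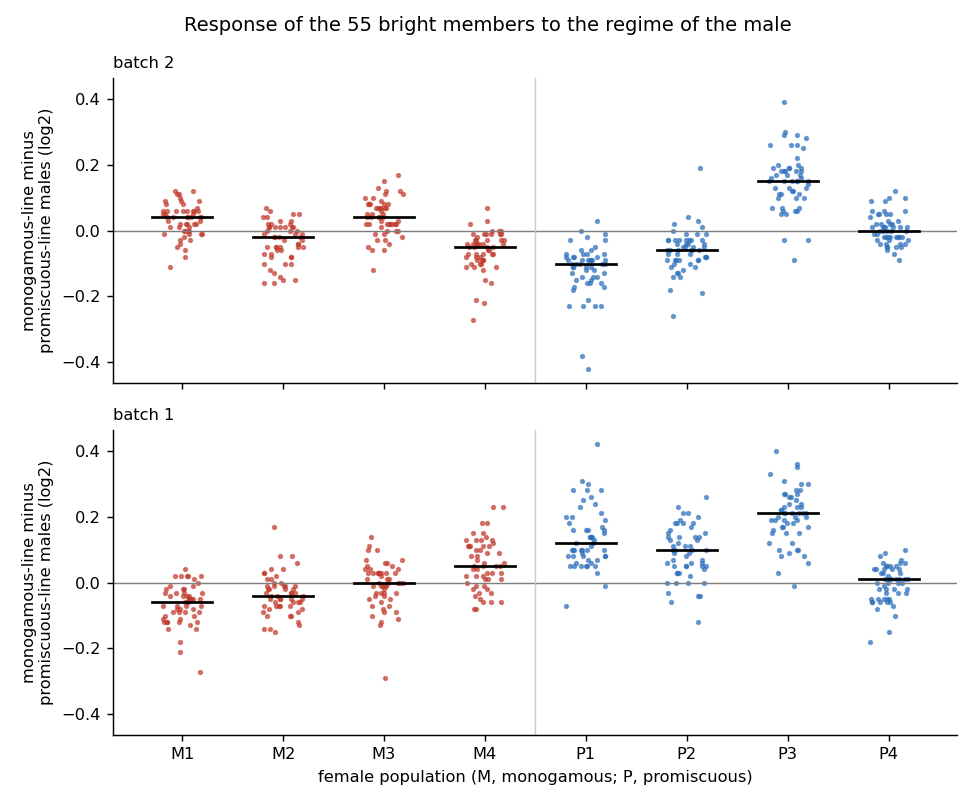
Response to the regime of the male (monogamous-line minus promiscuous-line males, log2, vertical axis) of each of the 55 bright members in each female population (horizontal axis), with batch 2 above batch 1. Points are members, red in monogamous and blue in promiscuous females, and black bars are medians; P3 is above 0 in both batches, while P1 and P2 lie below 0 in batch 2 and above 0 in batch 1.

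The P3 response came with low levels in P3 females mated to their own males. The 2 arrays of that cross had the 2 lowest means of bright members of all 32, at 12.01 in batch 2 and 12.03 in batch 1. Complex II, the most spread, had 11.345 in batch 2 and 11.279 in batch 1, beside a mean of 11.57 ± 0.03 (SD, n = 4 crosses) in promiscuous females with monogamous-line males. That cross was the lowest of the 16 for 46 of 55 bright members (83.6%), and for 41 of 49 genes with 1 probe set each. The share was 7.77% among all probe sets above 9 and 8.00% among dim members. Bright members moved together between arrays, with an average pair correlation of 0.575, beside 0.017 for all probe sets above 9. The 46 are therefore not separate observations, and the count rests on the 2 arrays of 1 cross. In batch 2 alone that cross was the lowest for 40 members and in batch 1 alone for 27. The other P3 cross, with monogamous-line males, was the highest of the 16 for 17 of 55 bright members, the most of any cross. It was the highest for 510 of the 4053 probe sets above 9.

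Marker lists moved in the same cross. In P3 the flight muscle list responded by 0.28 (0.23 in batch 2 and 0.34 in batch 1) and the ovary list by -0.22 (-0.17 in batch 2 and -0.27 in batch 1). The array of P3 females with their own males in batch 2 had the lowest flight muscle mean of the 32, and its batch 1 counterpart ranked 9 from the bottom. That batch 1 array had the highest ovary mean of the 32. The flight muscle list also changed sign between batches in P1, at -0.29 in batch 2 and 0.35 in batch 1, and in P2 it had -0.15 in batch 2 and 0.01 in batch 1. It changed sign in all 4 monogamous populations as well, among them M4, at -0.31 in batch 2 and 0.11 in batch 1, and M2, at -0.28 in batch 2 and 0.15 in batch 1, where the bright members had the same sign in both batches. The gut list was above 0 in all 4 promiscuous populations, at 0.11, 0.16, 0.13 and 0.10 in P1 to P4. Over promiscuous females as a whole, 10 of 11 flight muscle probe sets were above 0 (median 0.066), 11 of 12 ovary probe sets were below 0 (median -0.102) and 4 of 4 gut probe sets were above 0 (median 0.108), none of them called. The summed signal of the flight muscle list, on the log2 scale, ran between 14.56 and 15.12 with monogamous-line males and between 14.40 and 15.08 with promiscuous-line males, and that of the ovary list between 15.02 and 15.24 with monogamous-line and 15.11 and 15.30 with promiscuous-line males. No marker of either list was at 0, a value RMA does not give. The part of these tissues in the P3 response was not tested.

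The members with the smallest p in promiscuous females were all bright. ND-B14.5A, an accessory subunit of complex I, responded by 0.09, 0.02, 0.23 and 0.10 in P1 to P4, a mean of 0.11 (SE 0.03, adjusted p = 0.379 in limma). COX7A, an accessory subunit of complex IV, responded by 0.10, 0.04, 0.08 and 0.02, a mean of 0.06 (SE 0.02, adjusted p = 0.407). Both were above 0 in all 4 promiscuous populations, which picking them by p on these same responses favours. ND-39 (0.09), ND-SGDH (0.06) and ND-13B (0.10), all of complex I, followed with adjusted p between 0.412 and 0.458. In batch 2 alone the responses of COX7A (-0.013), ND-39 (-0.008) and ND-SGDH (-0.032) were below 0.

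The test of the difference between the female regimes, the response in monogamous minus that in promiscuous females, uses the same arrays as the within-regime responses. It called no member, and 1 probe set of 18769 (0.00533%). The difference was below 0 for 68 of 80 members and for 53 of 55 bright ones, with a member median of -0.055. All probe sets had 9409 below 0 and a median of 0, and of the 4053 above 9 there were 2080 below 0. Leaving out P3 left a member median of -0.017 and 41 of 55 bright members below 0. At an unadjusted p under 0.05 there were 8 members, beside 1481 of all probe sets.

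ND-B8 had the smallest p and the largest difference of the members. It responded by -0.146, -0.193, -0.035 and -0.193 in M1 to M4 and by 0.008, 0.091, 0.355 and 0.007 in P1 to P4. Every monogamous population was below 0 and every promiscuous one above. The difference was -0.26 (SE 0.08), with an adjusted p of 0.534 in limma. UQCR-6.4 differed by -0.08 (SE 0.03, adjusted p = 0.562), and its regimes did not overlap either. In all, the responses of the regimes did not overlap for 4 of 80 members, the others being UQCR-14 and the ND-ACP probe set 1624776_a_at, and for 4.59% of all probe sets. ND-13B differed by -0.17 (SE 0.06), ND-B14.5A by -0.12 (SE 0.05) and ND-15 by -0.09 (SE 0.04), with adjusted p of 0.553, 0.608 and 0.612, and in those 3 the ranges of the regimes overlapped.

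Populations of the same regime were then compared with each other, with a moderated F test in limma over the 32 arrays. It called 5 of 80 members, where 17.6% of all probe sets were called. Whether these shares differ was not tested. The median range over the 8 population means was 0.13 for bright members, beside 0.176 for all probe sets above 9.

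UQCR-11 had the largest population range of all members, 0.72, and the smallest p (adjusted p = 0.00553 in limma). Population M4 had 6.36 and 6.34 in batch 2 and 6.38 and 6.42 in batch 1. Every array of M1, M2 and M3 was lower, between 5.39 and 6.10. Among promiscuous females, P4 averaged 6.12, P1 6.04, P3 5.82 and P2 5.66. The arrays of P2 all lay below those of P4, and those of P1 and P3 overlapped with both.

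ND-13B was lowest in M1 (adjusted p = 0.0076 in limma). Its 4 M1 arrays had 10.29 and 10.26 in batch 2 and 10.08 and 10.35 in batch 1, against population means of 10.50 in M2, 10.53 in M3 and 10.39 in M4. All 4 lay below every array of M2 and M3, and the highest overlapped with M4. The promiscuous means ran between 10.37 in P3 and 10.45 in P2.

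ND-B14, a complex I subunit of the LYR family, was called with an adjusted p of 0.0273 in limma. Its means were 11.44, 11.30, 11.36 and 11.37 in M1 to M4 and 11.445, 11.465, 11.289 and 11.48 in P1 to P4. P3 was the low promiscuous population. There the 2 arrays with monogamous-line males had 11.37 and 11.44, and the 2 with promiscuous-line males had 11.12 and 11.23.

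UQCR-Q, an accessory subunit of complex III (adjusted p = 0.0476), and COX7A (adjusted p = 0.0477) were near the threshold. UQCR-Q was highest in M4, at 11.30, and lowest in P3, at 11.12. COX7A was highest in M3, at 12.64, where all 4 arrays lay between 12.61 and 12.67, and lowest in P1, at 12.48, where a single array of batch 1 had 12.29. Each call of ND-B14, UQCR-Q and COX7A was lost under at least 1 other setting, while UQCR-11 and ND-13B were called under all that were run.

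**Figure D5:**
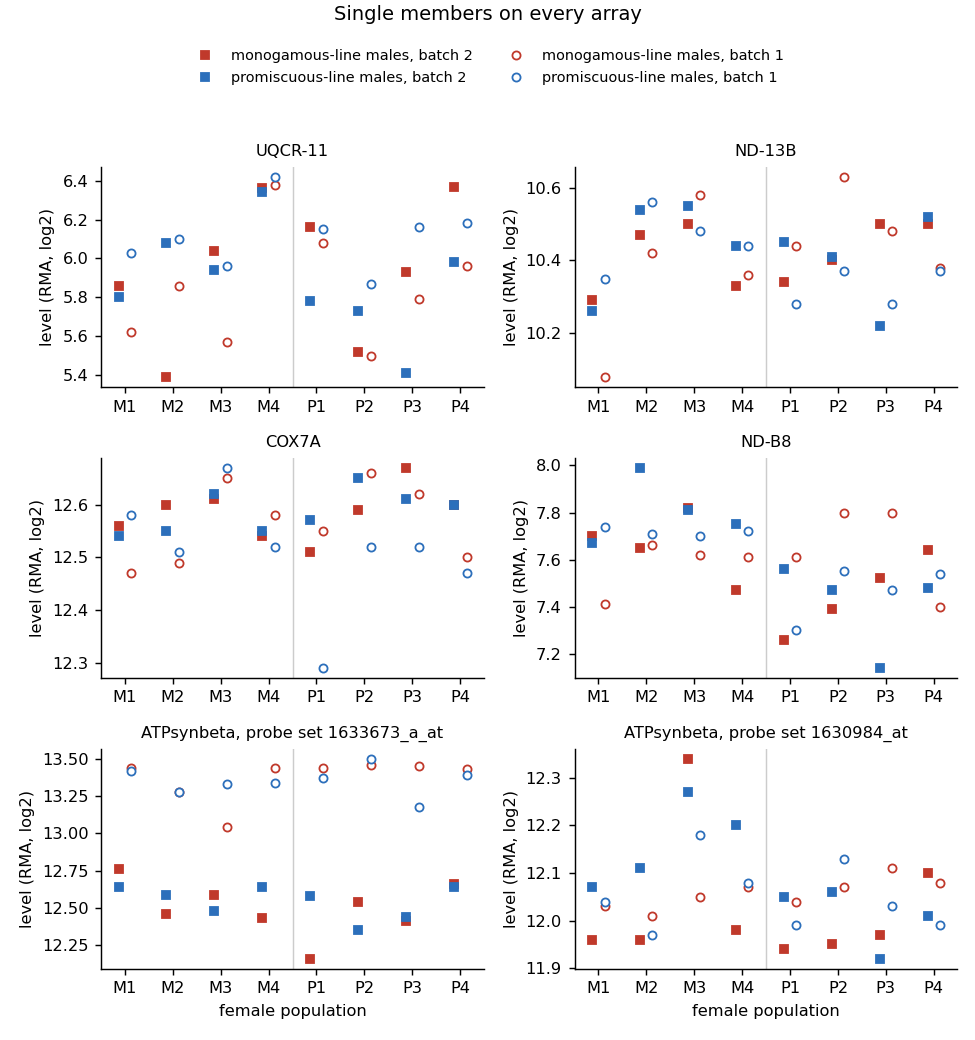
Log2 level of 5 members, ATPsynbeta with both of its probe sets, on each of the 32 arrays (vertical axis, one panel per probe set) by female population (horizontal axis). Red marks monogamous-line males, blue promiscuous-line males, filled squares batch 2 and open circles batch 1; UQCR-11 is high on all 4 M4 arrays, and the first ATPsynbeta probe set separates the batches while the second does not.

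The other complexes varied most in ND-B8 (range 0.32), SdhB, the iron-sulphur subunit of succinate dehydrogenase (0.23), COX7AL2 (0.34) and ATPsynepsilonL (0.26). None of these 4 was called. Among subunits outside the naming rule, the population test called blw and both probe sets of RFeSP, the Rieske iron-sulphur protein of complex III. RFeSP had population means of 12.17, 11.94, 12.25 and 12.37 in M1 to M4 and 12.11, 12.35, 12.21 and 12.37 in P1 to P4 (adjusted p = 0.000418 in limma for 1631856_a_at).

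In the Krebs cycle list the test called 5 of 12 probe sets. Idh3b, a subunit of isocitrate dehydrogenase, had 11.11 in M4 against 10.31, 10.16 and 10.28 in M1 to M3, and between 9.83 and 10.38 in the promiscuous populations (adjusted p = 6.26e-08). The flight muscle list had 7 of 11 called, among them fln at 10.77 in P3, against 11.57 in P1, 11.58 in P2 and 11.97 in P4. Act88F, TpnC4 and the Strn-Mlck probe set 1630501_a_at were also lowest in P3 among the promiscuous populations. The other called ones were highest in P3 among them: TpnC41C (10.88), Mlc2 (10.96) and the Strn-Mlck probe set 1634574_a_at (8.21).

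Batch was compared within each cross, as the batch 2 minus the batch 1 array. Since each cross has 1 array per batch, batch and replicate array cannot be told apart. The test called 9 of 80 members, where 20.2% of all probe sets were called. It called 4 members higher in batch 2, where 10.7% of all probe sets were, and 5 lower, where 9.49% were. All 9 were bright.

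One of these shifts was far larger than the rest. The ATPsynbeta probe set 1633673_a_at had a lowest, median and highest value of 12.16, 12.56 and 12.76 on the 16 arrays of batch 2, against 13.04, 13.405 and 13.50 on those of batch 1. The batches did not overlap, and all 16 crosses were lower in batch 2. The difference was -0.84 (SE 0.04), with an adjusted p of 3.3e-11 in limma. The other probe set of the gene, 1630984_at, had 11.92, 12.03 and 12.34 in batch 2, against 11.97, 12.045 and 12.18 in batch 1, and differed by 0.003 (SE 0.03, adjusted p = 0.950). The 2 probe sets of this gene therefore disagreed on the batch difference. With both, complex V differed by -0.077 between batches, and without them by -0.008.

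The remaining called members shifted by 0.12 or less, with overlap between batches. ND-B16.6 (0.10), SdhC (0.09), ND-MNLL (0.08) and UQCR-14 (0.07) were higher in batch 2. ND-51, the flavoprotein that oxidises NADH (-0.12), the ATPsyngamma probe set 1627018_s_at (-0.08), the COX7B probe set 1632440_at (-0.07) and ATPsynC (-0.06) were lower. Their adjusted p ran between 0.0071 and 0.0476 in limma, and the calls of these 8 were each lost when at least 1 of the 4 population numbers was left out.

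A like disagreement between probe sets of the same gene was seen in the Krebs cycle list, where 8 of 12 probe sets were called, all lower in batch 2. The ScsbetaG probe set 1637251_a_at, for a subunit of succinyl-CoA synthetase, differed by -0.71 (SE 0.05, adjusted p = 1.25e-09), 1635682_at of the same gene by -0.18 (adjusted p = 0.0204) and 1626745_at by 0.09 (adjusted p = 0.0786). Idh3b differed by -0.38 and Idh3g by -0.36. Among the other lists, levy (0.11) was called higher and cype (-0.06) lower, and porin (0.04), the channel of the outer mitochondrial membrane, was called higher. The assembly factors Scox (0.11) and Sdhaf3 (0.08) were called higher and Cox10 (-0.07) lower, and PolG1 (0.13), the mitochondrial DNA polymerase, was called higher. In the ovary list 8 of 12 probe sets were called, 5 higher and 3 lower in batch 2. Probe sets of the same gene disagreed there too. Those of osk differed by 0.142, 0.194 and -0.333, and those of bcd by 0.157 and -0.585.

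In the regime comparisons no gene of the lists was called. Of the subunits outside the naming rule, 6 of 8 probe sets were above 0 in the female regime comparison (median 0.026) and 5 of 8 in the response of promiscuous females (median 0.025). In monogamous females 7 of 8 were below 0 (median -0.030), and ox had the smallest p there, at -0.10 (SE 0.04, adjusted p = 0.468 in limma). Its interaction was -0.16 (SE 0.05, adjusted p = 0.534). P3 responded by 0.10 in this list, 0.08 in batch 2 and 0.12 in batch 1, the largest response of the 8 populations.

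The Krebs cycle list had 9 of 12 probe sets above 0 in the female regime comparison (median 0.020) and 6 of 12 in the response of promiscuous females (median 0.004). Assembly factors had 7 of 8 below 0 between the female regimes (median -0.022). The list for mitochondrial gene expression had 8 of 10 below 0 in the response over all females (median -0.025). In P3 the Krebs cycle list responded by 0.07, the assembly factors by 0.07 and the mitochondrial expression list by -0.04, against 0.18 for the bright members.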

How the data were processed

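Total RNA of whole flies was hybridised to 32 arrays. The authors deposited a log2 value per probe set, made with RMA (affy, per the submitters' processing notes), whose versions are not given in the sources used here. RMA subtracts background, makes the distributions of the arrays alike and combines probes on the log2 scale, which narrows differences of dim probe sets. The table held 18952 probe sets, of which 183 controls were left out. Gene names came from the platform annotation: 13647 of the tested probe sets had 1 gene, 402 several and 4720 none. All 80 members matched the RefSeq gene table. No count of flies per array was given in the sources used here, and the precision rests on the number of arrays and populations.

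limma 3.58.1 in R 4.3.3 (lmFit, eBayes with an intensity trend) was fitted to all 18769 probe sets, with Benjamini-Hochberg adjustment and a threshold of 0.05, two-sided. The female regime was tested on 8 population means, the male regime and interaction on 8 within-population responses, batch on 16 within-cross differences, and populations within regimes by a moderated F test over 6 contrasts on 32 arrays, with batch and male regime as terms. Replicates within a population are 2 arrays per cross. The fits were run on simulated data with known changes. The simulated noise was independent for each probe set and array, with no population, cross or shared male effect. That simulation therefore cannot check the use of populations as replicates. Members named in the comparisons include the 5 with the smallest unadjusted p in each and those called. For the brightest and dimmest of each complex and most L copies only a level was given. Of the genes whose probe sets disagree, and of the called genes in the other lists, only some were named. The members, lists and settings were chosen with earlier results of these data known. Alternatives were single batches, array centring, quantile normalization, a filter on dim probe sets, no trend, a replicate block, leaving out populations, arrays as samples and cross means. No promoter, probe or protein sequence was analysed here. Figures were drawn with matplotlib.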

Additional observations from a re-analysis of the deposited data

Results flagged for a closer look

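Values that stand alone were looked for in 68 groups of 4 populations and 20 groups of 8, with Dixon's test at its 95% level, and 6 were found. Chance alone gives about 1 in 20 groups that were not picked for their values. Many of these groups were members picked for a call or a small p. The ND-13B, ND-B14, UQCR-11 and COX7A values below come from such groups, and no excess over chance is read from the 6. Among the 4 promiscuous populations, P3 stood alone in the response to monogamous-line minus promiscuous-line males of complex I (0.20) and of complex V (0.124). Among the monogamous populations, M3 stood alone in the response of ND-13B, at 0.028, where the other 3 were below 0. P3 had a lone low mean of ND-B14 among the promiscuous populations (11.289). M4 had a lone high mean of UQCR-11 (6.374) and M3 a lone high mean of COX7A (12.637), both among the monogamous populations. The P3 values share the arrays of P3 females mated to their own males, so they are not independent of each other.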

How the results depend on the processing

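No member was called in any regime comparison under any setting run. Counts over all probe sets moved. In the female regime comparison the count was 1 with batch 1 alone, 142 with arrays as samples and population as a random block, and 0 to 1 with a population left out. The male regime over all females gave 13 with the replicate block and 0 to 2 with a population left out, and in monogamous females 0 to 10. In promiscuous females the main count of 1 became 0 with either batch alone, array centring, quantile normalization, no dimmest 40% or no trend, 2 with the replicate block, and 0 to 2 with a population left out. The interaction count of 1 became 2 with batch 1 alone or centring, 0 with batch 2 alone, no trend or the replicate block, and 0 to 4 with a population left out. The replicate block changed no member's call. Same-numbered populations deviated together with correlations of 0.13, 0.07, 0.19 and 0.02, and their responses with 0.17, 0.03, -0.04 and 0.01. The main fit did not take the numbers as pairs. Responses of same-numbered populations still rest on the same male populations, and low correlations do not remove that dependence.

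For batch, members called numbered 14 with quantile normalization, 4 with no trend and 4 to 7 with a population number left out, when 2259 to 2759 of all probe sets were called. For populations within a regime they numbered 3 with centring and 2 with no trend. In batch 2 alone the response of ND-SGDH over all females was -0.006, and in promiscuous females those of COX7A, ND-39 and ND-SGDH were -0.013, -0.008 and -0.032. Other settings were chosen after seeing the data: bright members above 0 in promiscuous females numbered 23 in batch 2 alone and 35 to 54 with a population left out (35 without P3), those below 0 in the interaction 31 in batch 2 alone and 41 to 54 with a population left out, and those lowest in P3 females with their own males 27 in batch 1 alone. The cause of these changes was not tested, except that leaving out samples lowers the number fitted. With 4 populations per regime and differences under 0.1 for most bright members, small differences may lie below what these arrays can show.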

Other observations

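Outside the OXPHOS subunits, the 4 gut probe sets, all of secreted proteases, had an unadjusted p under 0.05 in the response of promiscuous females, where Jon99Ci differed by 0.23 (SE 0.03, adjusted p = 0.0948 in limma). The population test called all 4. The mean of the fat body list moved opposite to the bright members over the 8 populations, with a correlation of -0.86. That value is a description of populations that share batches and origin. Lsp2 (12.14 in M4 to 13.33 in M1) and the dim Fbp1 (4.71 in P4 to 5.62 in P3) spread most in the list. Yp1 ran only between 14.70 and 14.77 and Yp3 between 14.44 and 14.52. FASN1 was highest in M4 (12.38), where the bright members were also highest.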
